A study of Mus musculus with 6 samples.

Results

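A set of 10 genes of retinal ganglion cells and of the neuronal cytoskeleton were followed in the retinas of Myrf-kd and wild-type (WT) mice. They are the neurofilament subunit genes Nefl, Nefm, Nefh and Ina and the ganglion cell genes Sncg, Thy1, Rbpms, Gap43, Tubb3 and Opn4, chosen by symbol from a table of 55450 genes, and all 10 were found in it. RNA was sequenced from 3 Myrf-kd retinas, given in the series text as Myrf +/−, and from 3 WT retinas. All 6 samples came from C57BL/6 mice aged 8 weeks and carried no other stated allele or treatment. The labels do not say how the Myrf allele was made, nor that the 3 samples of a group are separate animals, so a p-value here measures the spread between these libraries alone, and that spread may be technical.

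Retinal ganglion cells are the output neurons of the eye, and their axons run through the optic nerve to the brain. Neurofilaments are the intermediate filaments of large axons. They are built from a light, a medium and a heavy subunit and α-internexin, and they set axon calibre. The markers named here are used in mouse retina to count ganglion cells or to follow their loss, although several are shared with other cells: neurofilament genes are also active in horizontal cells, and Tubb3, Gap43 and Sncg in some amacrine cells. Myrf codes for a transcription factor held in a membrane until it is cut free, and it is best known as an activator of myelin genes in oligodendrocytes. The mouse retina itself holds unmyelinated ganglion cell axons.

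The libraries held between 50695091 and 70298511 deposited count units, about 4 to a fragment. Levels compared between genotypes are in CPM, a gene's share of the count units of its library after TMM scaling, and levels compared between genes are in FPKM, which also divides by exon length. Myrf had 2.79, 3.76 and 3.51 CPM in Myrf-kd 1, 2 and 3, against 3.57, 4.03 and 4.68 CPM in WT 1, 2 and 3, so the genotypes overlapped in the targeted gene (edgeR adjusted p = 0.732). The fitted difference was −18.1% (95% interval from −40.4% to 12.6%). Myrf averaged 0.372 FPKM, on 45 to 80 fragments per library, and its interval spans a lower level, no change and a higher level. Myrf-kd 3 stood apart on the first principal component, at 43.8 against 10.8 or less in the other libraries, and Myrf-kd 3 and WT 3 were the only libraries with Xist above 1000 CPM. Rod markers, at a summed 41610 to 45240 CPM across Myrf-kd and 46850 to 64130 CPM in WT, marked all libraries as retina. The ganglion cell transcription factor genes Pou4f1 and Pou4f2 were also present in all of them, at 28.2 CPM or more and 9.44 CPM or more.

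The annotation places Nefl inside the span of Nefm, on the opposite strand, which bears on both genes' counts. Nefl (ENSMUSG00000022055) lies at chr14:68083863-68089095 on the plus strand of GRCm38, and Nefm (ENSMUSG00000022054) at chr14:68082590-68124846 on the minus strand. The short Nefm transcript, 3334 bases in 3 exons, ends before Nefl. A longer one of 3680 bases runs on through Nefl and shares 1108 exon bases from the start of Nefl, which is 32.8% of the exon bases of Nefl and 19.2% of those of Nefm.

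The sources used here do not give whether the counting used strand, so how fragments from the shared bases were divided between Nefl and Nefm is unknown. Nefh lies on chromosome 11 (chr11:4938754-4948064), Ina on 19 (chr19:47014698-47025327), Thy1 on 9 (chr9:44043384-44048579) and Gap43 on 16 (chr16:42248442-42340651). Rbpms (chr8:33782643-33929863) and Tubb3 (chr8:123411424-123422015) share chromosome 8, and Sncg (chr14:34370274-34374789) and Opn4 (chr14:34590618-34599958) lie on chromosome 14 as do Nefl and Nefm. Ina has a similar neighbour: 456 of its exon bases (14.1%) are shared with Nt5c2 on the opposite strand. Opn4 shares 130 exon bases (4.4%) with the antisense gene Gm49012, which had at most 29 count units in a library. The other 6 genes share no exon bases with another annotated gene. Tubb3 belongs to a family of similar β-tubulin genes, and fragments that match several of them may have been placed in either.

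None of the 10 genes passed the test for a difference between Myrf-kd and WT retina. In the quasi-likelihood test of edgeR, adjusted by Benjamini-Hochberg over 13675 genes, 0 of 10 passed an adjusted p of 0.05, against 0.0439% of all genes (6 genes), and their adjusted p-values lay between 0.715 and 0.981. At an unadjusted p under 0.05 there were again 0 of 10, against 7.48% of all genes. DESeq2 and limma also called 0 of 10. Of the 10, 9 had a mean of at least 1 FPKM over the 6 libraries, and their Myrf-kd to WT ratios ranged from 0.909 for Rbpms to 1.01 for Ina. Opn4 lay below that level and was kept in the test by rule. A p that misses the threshold does not show equal levels, so the intervals matter here: the 95% interval of the ratio stayed within 1.5-fold either way for 9 of 10 genes, against 69.2% of all genes, the exception being Opn4.

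**Figure D1:**
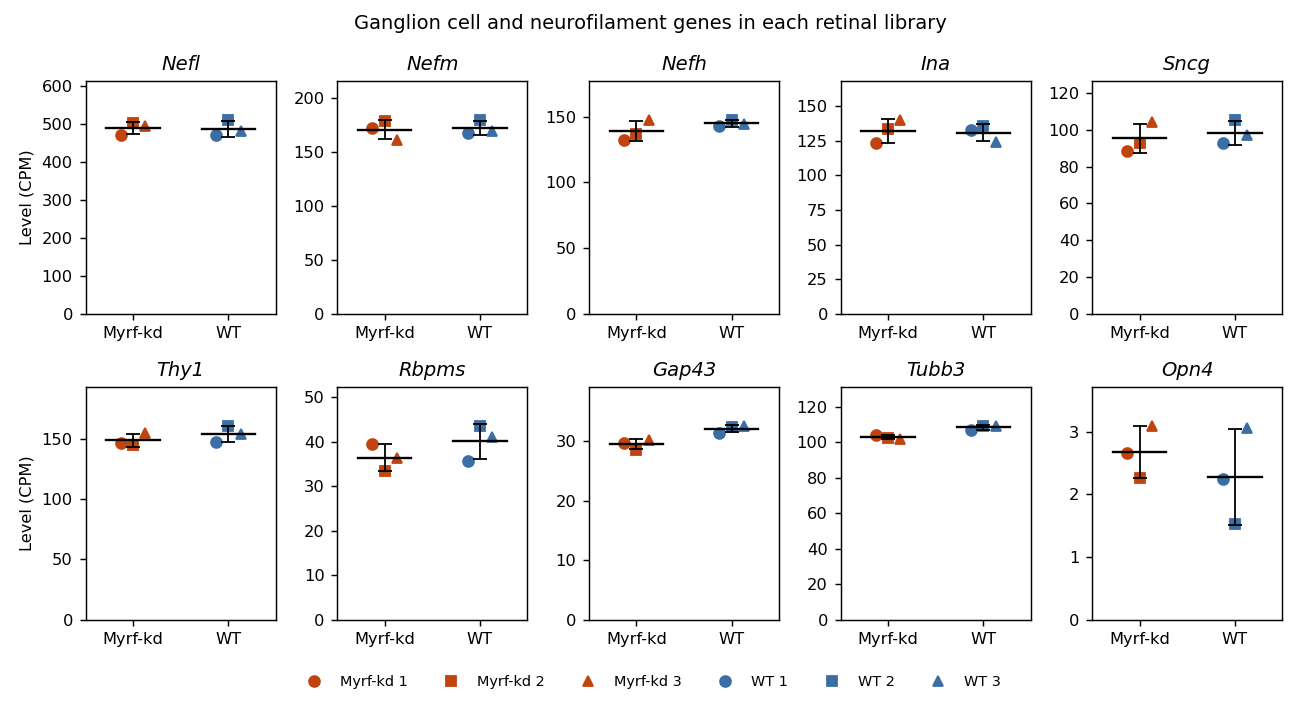
Level of each of the 10 genes (CPM, axis from 0) in the 3 Myrf-kd libraries (orange) and the 3 WT libraries (blue), with symbols for the replicate number, a bar at the mean and error bars of 1 SD (n = 3 each). Gap43 and Tubb3 are the 2 genes whose genotypes do not overlap, with Myrf-kd below WT, and Opn4 has the widest spread.

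The light chain gene Nefl, whose product can assemble filaments together with each of the other subunits, was the most abundant of the 10. It had 471, 502 and 493 CPM in Myrf-kd 1, 2 and 3, against 469, 510 and 480 CPM in WT 1, 2 and 3. The genotypes overlapped throughout, and the fitted difference was 0.477%, with a 95% interval from −9.29% to 11.3% (edgeR adjusted p = 0.981). The medium chain gene Nefm had 172, 179 and 161 CPM in Myrf-kd 1, 2 and 3, against 167, 180 and 170 CPM in WT 1, 2 and 3. Its lowest value was that of Myrf-kd 3 and its highest that of WT 2, and the fitted difference was −0.887% (95% interval from −10.6% to 9.85%, edgeR adjusted p = 0.967).

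The heavy chain gene Nefh, which encodes the subunit with the longest phosphorylated tail, averaged 139 ± 7.81 CPM across Myrf-kd and 145 ± 2.55 CPM in WT (SD, n = 3 each). Myrf-kd 1 and Myrf-kd 2, at 132 and 137 CPM, lay below all WT libraries, which were at 143, 148 and 144 CPM in WT 1, 2 and 3, while Myrf-kd 3, at 148 CPM, lay level with the highest. The fitted difference was −4.06% (95% interval from −13.2% to 6.03%, edgeR adjusted p = 0.804). Ina encodes α-internexin, the subunit that appears first in developing neurons. It had 123, 133 and 140 CPM in Myrf-kd 1, 2 and 3, against 133, 136 and 124 CPM in WT 1, 2 and 3, and both the lowest and the highest value belonged to Myrf-kd libraries (1.08%, 95% interval from −9.97% to 13.5%, edgeR adjusted p = 0.964). Ina shares chromosome 19 with Myrf, 36.77 Mb away.

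Proportions among the subunits were also close in all libraries. The ratio of Nefh to Nefl in FPKM was 0.238, 0.231 and 0.254 in Myrf-kd 1, 2 and 3, against 0.257, 0.245 and 0.255 in WT 1, 2 and 3. Ina stood at 0.282 ± 0.0128 of Nefl in Myrf-kd and 0.281 ± 0.0133 in WT (SD, n = 3 each). Nefm stood at 0.214, 0.208 and 0.191 of Nefl in Myrf-kd 1, 2 and 3, and between 0.206 and 0.209 in WT. The genotypes overlapped in each of these 3 ratios, with the lowest Nefm share in Myrf-kd 3, and no test was run on them.

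Among the ganglion cell genes, Gap43 and Tubb3 were the 2 members whose Myrf-kd libraries all lay below all WT libraries, which held for 7.5% of all genes. Gap43 encodes a membrane phosphoprotein of growth cones and of regrowing axons. It had 29.7, 28.5 and 30.1 CPM in Myrf-kd 1, 2 and 3, against 31.4, 32.4 and 32.5 CPM in WT 1, 2 and 3. Each Myrf-kd library thus lay just below the lowest WT library, and the fitted difference was −8.25% (95% interval from −19.2% to 4.17%, log2 fold change −0.12 ± 0.08 SE, edgeR adjusted p = 0.715). Tubb3 encodes the neuronal class of β-tubulin that the TUJ1 antibody detects. It had 104, 103 and 102 CPM in Myrf-kd 1, 2 and 3, against 107, 109 and 109 CPM in WT 1, 2 and 3, a fitted difference of −5.17% (95% interval from −12.8% to 3.16%, log2 fold change −0.08 ± 0.05 SE, edgeR adjusted p = 0.731). For both genes the two-sided exact permutation p was 0.1, the smallest that 3 libraries against 3 allow. Any gene whose genotypes do not overlap gets this value, so it restates the separation and adds no support to it. The same 2 genes were separated, in the same direction, in FPKM and with each of 3 other scalings of the counts. Of all genes, 6.57% were lower without overlap in FPKM and 5.1% to 7.7% with the other scalings. All of these rescale the same counts, so their agreement is not separate evidence. Their spread within a genotype was small: 1.7% of all genes had a within-group SD as low as that of Gap43, and 0.1% one as low as that of Tubb3.

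Thy1, a surface glycoprotein gene long used to label ganglion cells, had 147, 145 and 155 CPM in Myrf-kd 1, 2 and 3, against 148, 161 and 154 CPM in WT 1, 2 and 3. Myrf-kd 3 reached the WT range and the other 2 Myrf-kd libraries lay just under it (−3.37%, 95% interval from −12.3% to 6.48%, edgeR adjusted p = 0.83). Rbpms encodes an RNA-binding protein found in nearly all ganglion cells of the rodent retina. It had 39.4, 33.4 and 36.3 CPM in Myrf-kd 1, 2 and 3, against 35.7, 43.5 and 40.9 CPM in WT 1, 2 and 3. The genotypes overlapped, and the fitted difference was −9.14% (95% interval from −24.0% to 8.58%, edgeR adjusted p = 0.753). Its log2 fold change, −0.14 with all libraries, was −0.081 when Myrf-kd 2 was left out, −0.074 when WT 2 was left out and −0.215 when WT 1 was. Sncg encodes γ-synuclein, a small cytosolic protein abundant in ganglion cell bodies and axons, and had 88.7, 93.0 and 104 CPM in Myrf-kd 1, 2 and 3, against 92.6, 105 and 97.2 CPM in WT 1, 2 and 3. Here too the genotypes overlapped (−3.13%, 95% interval from −15.7% to 11.3%, edgeR adjusted p = 0.899).

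Opn4 encodes melanopsin, the photopigment of the intrinsically photosensitive ganglion cells, a small class that sets the circadian clock and the pupil reflex. It had 2.66, 2.26 and 3.09 CPM in Myrf-kd 1, 2 and 3, against 2.25, 1.53 and 3.06 CPM in WT 1, 2 and 3. Between 19 fragments, in WT 2, and 52 fragments, in Myrf-kd 3 and WT 3, lay behind these values, whereas each of the other 9 genes had between 401 and 8361 fragments per library. The fitted difference was 17%, with a 95% interval from −27.0% to 87.5% (edgeR adjusted p = 0.843). This was the widest interval of the 10, on the fewest fragments.

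**Figure D2:**
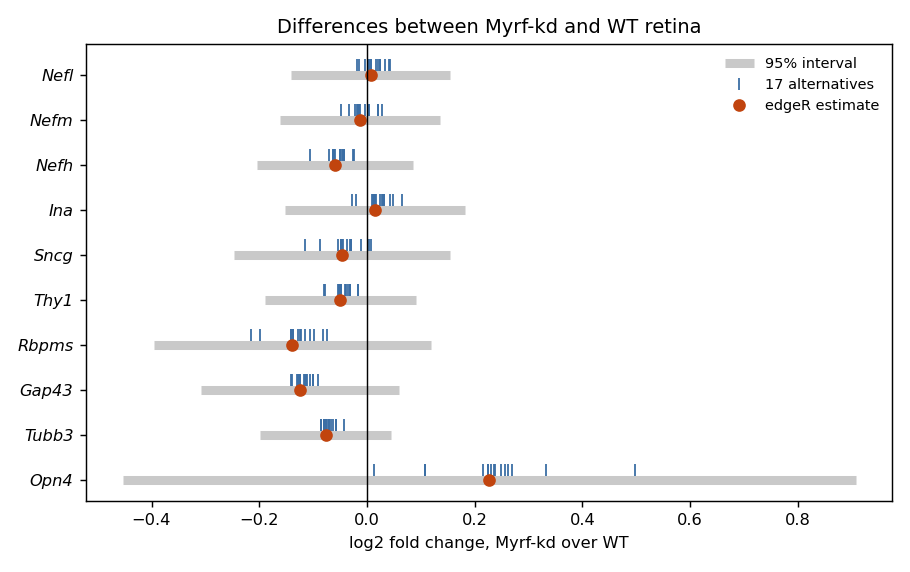
Fitted log2 fold change of each gene, Myrf-kd over WT (horizontal axis), with its 95% interval (grey) and, as ticks, its value under 17 other ways of processing the data. All 10 intervals include 0, and the widest, that of Opn4, runs from −0.45 to 0.91.

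The estimates of the 10 genes were small and mostly below 0. Lower estimates were found for 7 of 10 (6 of 10 with library totals only), against 49% of all genes, and the median log2 fold change was −0.048, against 0.004 over all genes. That lean rested in part on WT 2, which held the highest level of 6 of the 10 genes, Nefl, Nefm, Nefh, Sncg, Thy1 and Rbpms, and the lowest of Opn4. Without WT 2 the estimates were lower for 5 genes and higher for 5, with a median of −0.005. WT 2 was also the shallowest library. The spread between libraries was small: the median within-group SD of the 10 genes was 0.063 on the log2 scale, against 0.148 over all genes, which average a lower level. In RNA of whole retina, fewer ganglion cells and less RNA per cell cannot be told apart.

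Summed over the 4 subunits, neurofilament RNA came to 898, 952 and 942 CPM in Myrf-kd 1, 2 and 3, against 912, 973 and 918 CPM in WT 1, 2 and 3. The 6 ganglion cell genes summed to 411, 405 and 430 CPM in Myrf-kd 1, 2 and 3, against 416, 453 and 437 CPM in WT 1, 2 and 3. Both sums overlapped between the genotypes, and the 10 genes together made up 0.134% of all count units.

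The levels of the 10 genes spanned 173-fold in FPKM. Nefl averaged 124 ± 4.22 FPKM over the 6 libraries (SD, n = 6), and Sncg followed at 97.7 ± 6.19 FPKM. Tubb3 was at 48.6 ± 1.14 FPKM, Thy1 at 43.4 ± 1.28, Ina at 34.9 ± 1.89, Nefh at 30.5 ± 1.2, Nefm at 25.5 ± 1.02 and Gap43 at 17.4 ± 0.748 FPKM. Rbpms, at 4.996 ± 0.425 FPKM, and Opn4, at 0.715 ± 0.172 FPKM, came last. Each gene's lowest library lay above the highest library of the next gene, so the order in FPKM was the same in all 6. Of the genes tested, 1.3% had a higher mean FPKM than Nefl, and 55.9% had a higher one than Rbpms.

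Part of that order depends on the length behind the FPKM. The ratio of count units to FPKM gave each gene's length as the union of all its annotated exons: 5780 bases for Nefm, whose union is 5782 bases although its longest transcript has 3680. Rbpms, with 15 transcripts, was divided by 6564 bases, while its longest transcript has 2547. Per base of the longest transcript, a length chosen after seeing the data, Nefm had a mean of 40.1 FPKM and stood above Ina and Nefh. Thy1 passed Tubb3 at 74.9 FPKM, and Rbpms reached 12.9 FPKM. Nefl, Sncg, Gap43, Rbpms and Opn4 kept their places. The ratio of Nefh to Nefm, 1.2 in FPKM, became 0.764, so which of the 2 subunit genes is the more abundant turns on the length used. Comparisons between genotypes are not touched by this, since a gene's length is the same in every library.

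**Figure D3:**
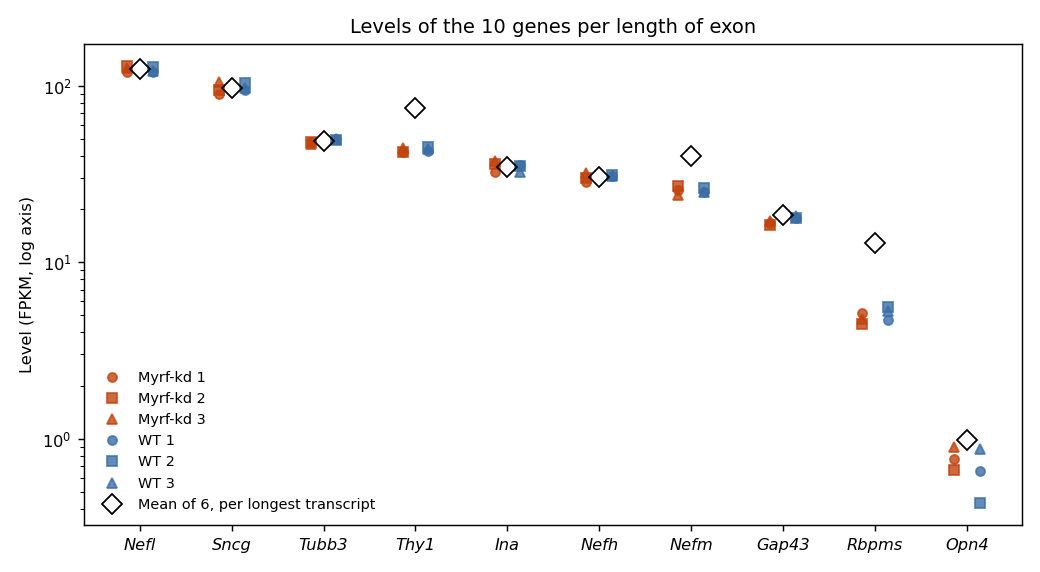
Level of each gene in FPKM (log axis), in the 3 Myrf-kd libraries (orange, left) and the 3 WT libraries (blue, right), with open diamonds for the mean of all 6 per base of the longest transcript. Diamonds lie above all 6 points for Thy1, Nefm, Rbpms, Opn4 and, by little, Gap43, the 5 genes whose exon unions are longer than their longest transcript.

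Ina and Opn4 lie far apart in that order, at 34.9 and 0.715 FPKM, and the 100 bases before their RefSeq starts are given here for comparison (GRCm38.p6, 5′ to 3′ on the gene's strand; 4 of the 10 genes had an entry among the RefSeq promoters used). Ina is at chr19:47014581-47014680, plus strand, and Opn4 at chr14:34600143-34600242, minus strand. Capitals mark GC boxes, GGGCGG or its reverse complement CCGCCC.
Ina: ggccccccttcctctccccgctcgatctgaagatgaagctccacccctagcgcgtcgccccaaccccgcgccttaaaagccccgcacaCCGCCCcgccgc
Opn4: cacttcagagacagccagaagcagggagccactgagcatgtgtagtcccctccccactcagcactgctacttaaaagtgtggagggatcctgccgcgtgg

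The window of Ina holds 1 GC box and that of Opn4 holds 0, and 24.7% of 32851 RefSeq promoter windows of that length hold at least 1. Neither holds the TATA box letters TATAAA or their reverse complement, which 5.6% of all windows do. GC content is 71% for Ina and 58% for Opn4, with a median of 55% over all windows. Sncg and Tubb3, which also had an entry, each hold 1 GC box, at 66% and 69% GC. Any link between these windows and the levels was not tested. Sncg and Opn4 are near neighbours, 216 kb apart on chromosome 14, and their mean levels differed by more than 100-fold in FPKM.

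Across the 6 libraries the genes did not share 1 pattern. Pearson's r of log2 CPM was 0.902 between Nefh and Sncg, 0.90 between Sncg and Thy1, and 0.912 between Gap43 and Tubb3, the pair that separates the genotypes. Nefl and Nefm, neighbours that share exon bases, had an r of 0.524, and Nefm and Nefh an r of −0.281. With 6 libraries that also share the group difference and the scaling, these values are descriptions only. The mean profile of the 4 neurofilament genes was most like that of Erich5 (r = 0.985), the acetyltransferase subunit gene Naa20 (0.977) and the lipid transfer gene Stard7 (0.974). That of Sncg, Thy1, Rbpms, Gap43 and Tubb3 was most like that of the phosphodiesterase gene Pde4b (0.999) and the ribosomal genes Rpsa (0.990) and Rpl4 (0.986), which have many near-identical copies in the genome. Of 11789 genes compared, 40 had an r above 0.9 with the first profile and 188 with the second.

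Genes that work beside the 10 were read from lists drawn up for this tissue, and 0 of their tested members passed by edgeR in any of the lists named here. Of 18 tested ganglion cell markers outside the 10 genes, 6 had higher and 12 lower estimates (median log2 fold change −0.023, against 0.004 over all genes). Scaling by library totals alone, which moved the median of all genes to 0.038, made that 10 higher and 8 lower. It also turned the splits given next to 5 and 4 for transcription factors, 9 and 8 for neurofilament handling, 5 and 3 for other intermediate filaments, 14 and 6 for axonal tubulins and 5 and 3 for sodium channels. The sodium channel gene Scn1a had 60.9, 65.9 and 73.4 CPM in Myrf-kd 1, 2 and 3, against 80.3, 76.8 and 73.9 CPM in WT 1, 2 and 3, with no overlap (edgeR unadjusted p = 0.0446, adjusted p = 0.666). The calretinin gene Calb2, which amacrine cells also use, averaged 385 ± 17.1 CPM across Myrf-kd and 419 ± 14.4 CPM in WT (SD, n = 3 each; edgeR adjusted p = 0.697). Scn1a and Calb2 were the 2 of these 18 markers lower in Myrf-kd without overlap, which held for 7.5% of all genes. The enkephalin gene Penk was at 80.5 CPM in Myrf-kd 1, against 8.51 to 11.4 CPM in the other 5 libraries, so its fitted ratio of 3.11 rests on 1 library.

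Transcription factors of ganglion cells had 4 of 9 tested members higher and 5 lower (median −0.012). Pou4f3 had 4.50, 3.65 and 5.98 CPM in Myrf-kd 1, 2 and 3, against 2.76, 4.30 and 3.35 CPM in WT 1, 2 and 3, with overlap (edgeR adjusted p = 0.703). Ebf1 averaged 31.0 ± 0.306 CPM across Myrf-kd and 33.4 ± 1.66 CPM in WT (SD, n = 3 each; edgeR adjusted p = 0.743). It was the 1 of 9 tested factors lower in Myrf-kd without overlap, which held for 7.5% of all genes. Sncb, which encodes β-synuclein, a synaptic relative of the Sncg product, averaged 257 ± 34.2 CPM across Myrf-kd and 253 ± 15.6 CPM in WT (SD, n = 3 each; edgeR adjusted p = 0.964).

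**Figure D4:**
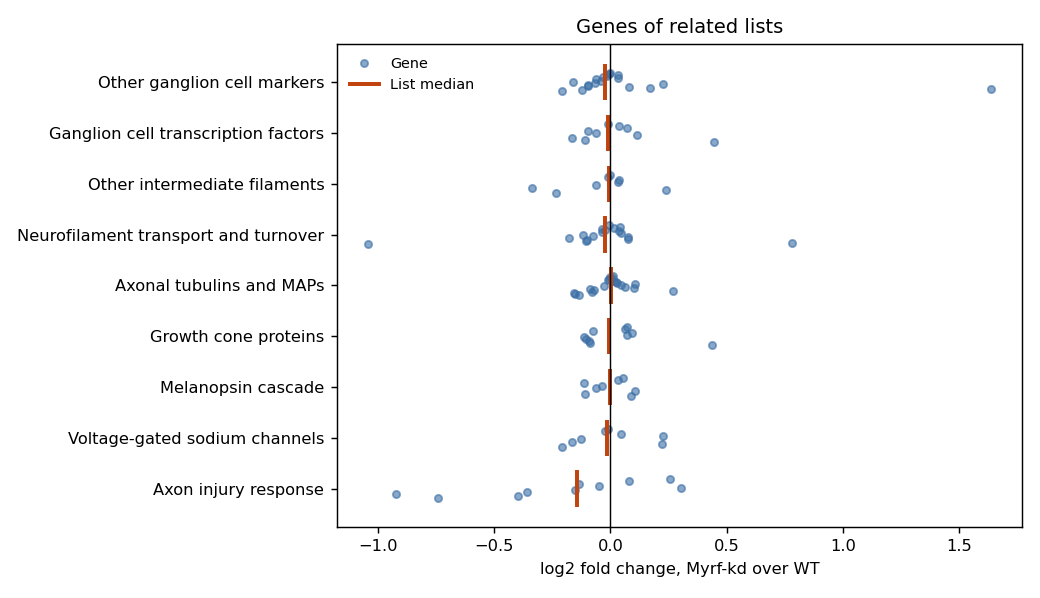
Fitted log2 fold changes, Myrf-kd over WT (horizontal axis), of the tested genes of 9 related lists (points, the 10 genes left out) with each list's median (bar). Medians lie between −0.024 and 0.003 for 8 lists and at −0.144 for the axon injury response.

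Genes that carry, modify or degrade neurofilaments had 7 of 17 members higher and 10 lower (median −0.024). Trim2, which encodes a ubiquitin ligase that targets the light chain, had 88.6, 79.6 and 79.1 CPM in Myrf-kd 1, 2 and 3, against 219, 215 and 75.1 CPM in WT 1, 2 and 3. WT 3 lay below all Myrf-kd libraries and the other 2 WT libraries far above them (edgeR unadjusted p = 0.0273, adjusted p = 0.666). Myo5a, a myosin motor gene, had 253, 235 and 222 CPM in Myrf-kd 1, 2 and 3, against 244, 90.2 and 78.7 CPM in WT 1, 2 and 3 (edgeR adjusted p = 0.697). Nefl RNA lay between 469 and 510 CPM in the same WT libraries. Any link of Nefl to Trim2 or Myo5a was not tested, and RNA gives no level of the light chain protein. Other intermediate filament genes had 3 of 8 tested members higher and 5 lower (median −0.004), and the nuclear lamin gene Lmnb1 averaged 54.1 ± 2.85 CPM across Myrf-kd and 63.6 ± 4.64 CPM in WT (SD, n = 3 each; edgeR unadjusted p = 0.0215, adjusted p = 0.666). Lmnb1 was the 1 of these 8 genes lower in Myrf-kd without overlap, against 7.5% of all genes.

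Axonal tubulins and microtubule-associated proteins were evenly split, 10 of 20 tested members higher and 10 lower (median 0.003). The collapsin response gene Dpysl3 averaged 443 ± 20.6 CPM across Myrf-kd and 487 ± 23.5 CPM in WT (SD, n = 3 each; edgeR adjusted p = 0.695). Growth cone proteins were split 5 and 5 of 10. Basp1, whose product resembles that of Gap43, had 92.0, 97.8 and 108 CPM in Myrf-kd 1, 2 and 3, against 103, 105 and 109 CPM in WT 1, 2 and 3, so the genotypes overlapped (edgeR adjusted p = 0.751). Genes of the melanopsin cascade, which passes the light signal through a Gq protein and phospholipase C to TRPC channels, were split 4 and 4 of 8 tested. Plcb4, the phospholipase of that cascade, averaged 73.6 ± 11.4 CPM across Myrf-kd and 68.5 ± 4.94 CPM in WT (SD, n = 3 each; edgeR adjusted p = 0.828). Voltage-gated sodium channel genes had 3 of 8 members higher and 5 lower (median −0.016). Without overlap, 1 was lower in Myrf-kd, Scn1a, and 1 was higher, Scn3a, against 7.5% and 7.13% of all genes. Scn3a averaged 19.4 ± 1.69 CPM across Myrf-kd and 16.6 ± 1.24 CPM in WT (SD, n = 3 each, edgeR adjusted p = 0.695).

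The axon injury response, genes switched on in ganglion cells after optic nerve damage, had the lowest median of these lists. Of 10 tested members, 3 had higher and 7 lower estimates (median log2 fold change −0.144), and 7 were lower under each of the other scalings too. Jun, a transcription factor gene of that response, had 78.5, 62.4 and 44.9 CPM in Myrf-kd 1, 2 and 3, against 100, 93.1 and 117 CPM in WT 1, 2 and 3. Atf3, another of its transcription factor genes, had 34.5, 27.7 and 7.32 CPM in Myrf-kd 1, 2 and 3, against 46.5, 40.6 and 44.7 CPM in WT 1, 2 and 3. The genotypes did not overlap in either gene, and Myrf-kd 3 was lowest in both. Neither passed (edgeR unadjusted p = 0.00796 for Jun and 0.104 for Atf3, adjusted p = 0.666 and 0.697). Ddit3 was also lower in Myrf-kd without overlap (edgeR unadjusted p = 0.0727, adjusted p = 0.688). Such separation held for 3 of the 10 tested members, against 7.5% of all genes. Jun and Atf3 respond to stress in many cell types, and these data do not say in which cells they were made.

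Markers of other cells were read beside the 10 genes. The summed amacrine list was at 1374 to 1475 CPM across Myrf-kd and 1413 to 1480 CPM in WT, the horizontal cell list at 339 to 365 and 341 to 353 CPM, the Mueller glia list at 5071 to 5533 and 5193 to 5707 CPM, and the astrocyte list at 432 to 502 CPM across Myrf-kd and 411 to 482 CPM in WT. All 4 sums overlapped between the genotypes. Tested members were 7 higher and 5 lower for amacrine and 2 and 2 for horizontal cells. They were 2 and 7 for Mueller glia (median log2 fold change −0.069) and 2 and 3 for astrocytes. Single members did separate: amacrine Pax6 was higher in Myrf-kd without overlap, and amacrine Calb2 and Mueller glia Rlbp1 were lower. Such separation held for 7.13% of all genes (higher) and 7.5% (lower). Oligodendrocyte markers, a sign of myelinated optic nerve in the tissue, summed to 65.0, 73.5 and 68.1 CPM in Myrf-kd 1, 2 and 3, against 70.31, 83.5 and 76.7 CPM in WT 1, 2 and 3, with overlap; 2 of 12 reached the level for testing, and Mog stayed under 0.51 CPM in every library. Cornea markers summed to 2.07 to 7.14 CPM across Myrf-kd and 16.0 to 24.1 CPM in WT without overlap, with Krt5 at 0 in Myrf-kd 1. Markers of rods, the most numerous cells of the mouse retina, summed to 45240, 41610 and 42820 CPM in Myrf-kd 1, 2 and 3, against 60500, 46850 and 64130 CPM in WT 1, 2 and 3, also without overlap. The summed lists of bipolar cells (1483 to 1755 CPM in Myrf-kd, 1537 to 1719 CPM in WT), peripheral nerve (25.8 to 36.3 and 32.5 to 41.9 CPM) and lens (1.0 to 67.7 and 16.1 to 25.8 CPM) overlapped. The part of rods and cornea in the differences of Gap43 and Tubb3 was not tested.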

How the data were processed

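Retinal RNA of 6 samples (3 Myrf-kd, 3 WT, grouped by title) was analysed. Trizol was used to extract total RNA, per the labels' protocols. The submitters' processing notes name Bowtie 0.12.2, HISAT2 2.0, StringTie 1.3.0 and GRCm38, without roles. The authors deposited FPKM values and estimated counts per gene and library, per the file headers. All counts were whole numbers (rounding altered 0). Their most frequent value above 0 was 4, so 4 units were taken as 1 fragment. Library totals ran from 50695091 to 70298511 units.

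Counts were tested with the quasi-likelihood test of edgeR 4.0.16, with TMM factors and genotype as the one term, for 13673 genes averaging 1 FPKM or more, plus Opn4 and Myrf. P-values are two-sided with Benjamini-Hochberg adjustment at 0.05. Standard errors are the log2 estimate over √F, and the 95% interval uses the t quantile of the test's degrees of freedom. DESeq2 1.42.0, limma 3.58.1 on log2(FPKM + 1) and log2(FPKM + 0.1), other filters and scalings, counts divided by 4, a replicate block, an Xist covariate and the omission of each library were alternatives. No pair of replicates agreed within sampling noise (lowest chi-square per degree of freedom 18.3). Named from each list were up to 3 tested genes with the smallest p, beside the 10 genes; Pou4f1, Pou4f2, Mog and Nt5c2 were named after their values were seen. The 3 most similar genes were those with the highest Pearson r. Members, lists and tests were chosen with earlier results of these data known. Some items are not reported here.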

Additional observations from a re-analysis of the deposited data

How the results depend on the processing

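The count of 0 of 10 genes passing held in all 17 alternatives, and so did the direction of Nefh, Thy1, Rbpms, Gap43, Tubb3 and Opn4. The estimate of Nefm, −0.013, turned positive with a mean FPKM of at least 5 (0.001), with library totals only (0.021) and with limma on FPKM (0.004 with either pseudocount). Leaving out each library in turn, the log2 fold change ran from −0.018 to 0.043 for Nefl, −0.048 to 0.027 for Nefm, −0.028 to 0.065 for Ina and −0.115 to 0.007 for Sncg, so all 4 changed sign at differences within their spread. Without changing sign, it ran from −0.105 to −0.025 for Nefh, −0.079 to −0.017 for Thy1, −0.215 to −0.074 for Rbpms, −0.141 to −0.101 for Gap43 and −0.086 to −0.07 for Tubb3, and from 0.013 without WT 2 to 0.497 without WT 3 for Opn4. The median of the 10 genes ran from −0.075 to −0.005. Of all genes, 6 passed, 2 with a mean FPKM of at least 5, 53 with DESeq2, 0 with the replicate number as a block (703 at an unadjusted p under 0.05 by edgeR) and 9 to 16 without 1 library; the cause was not tested. Same-numbered libraries correlated at −0.039, 0.105 and 0.157 in their deviations. Myrf-kd 1 was most like WT 2, while Myrf-kd 2 and Myrf-kd 3 were most like the WT library of their own number. With correlations this low and no pairing stated in the labels, the numbers were not taken as pairs. Under the block 0 of 10 genes passed, with a median of −0.048. The non-overlap of Gap43 and Tubb3 (2 genes) was seen with all 4 other scalings tried after seeing the data, which rescale the same counts.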
